A study of Mus musculus with 18 samples.

Results

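The glucocorticoid receptor gene Nr3c1 and 9 genes known as its targets or partners (Fkbp5, Tsc22d3, Per1, Sgk1, Dusp1, Zbtb16, Ddit4, Klf9 and Hsd11b1) were followed in mouse fetal microglia, to ask whether a trace of maternal stress hormone could be read after injection of the dam. The members were chosen by name. They are 10 of the 18194 genes that the array measures with a single-gene probe set, and all of their 28 single-gene probe sets were looked at. Of these, 18 probe sets of 8 genes had a mean level above the filter threshold of log2 2.49 and were tested among 22512 probe sets. Both Hsd11b1, with 1 probe set, and Zbtb16, with 3, stayed below it.

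Microglia, the macrophages that live in brain tissue, were sorted as CX3CR1-GFP+ cells from pooled hippocampi of C57BL/6 embryos at E17.5, and RNA was pooled per pregnant dam before hybridization to Affymetrix arrays. The LPS group (4 arrays) held microglia of wild-type embryos whose dams had received lipopolysaccharide, a bacterial cell wall component, and the PBS group (4 arrays) those of dams that had received phosphate-buffered saline. The DAP12KO group (4 arrays) held microglia of untreated DAP12-/- embryos, which lack the signalling adaptor DAP12 encoded by Tyrobp, and the UT group (6 arrays) those of untreated wild-type embryos. All 4 groups shared the GFP sort. The sources used here give no dose, route or time of injection, no zygosity of the GFP allele and no measurement of corticosterone. The sample titles end in a year, and the 4 years are called batches 1 to 4 in order of time, since what the year marks is not given. LPS and PBS each had 1 array in batch 1, 2 arrays in batch 2 and 1 array in batch 4. All 4 DAP12KO arrays belonged to batch 4, and of the UT arrays 2 belonged to batch 3 and 4 to batch 4. The LPS array of batch 4 is numbered 3_2 and that of batch 1 is numbered 3, and the labels do not say whether they share material, so that the LPS arrays may not all be independent. Beyond the pooling per dam the labels do not say how the arrays of a group relate, and p-values measure the spread between these arrays.

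Glucocorticoids, corticosterone in the mouse, pass into cells and bind the glucocorticoid receptor, which waits in the cytoplasm with heat shock proteins and then moves to the nucleus. There it induces genes such as Fkbp5, Tsc22d3 and Per1 through DNA elements made of inverted arms, and holds back inflammatory genes driven by NF-kB and AP-1. Maternal hormone is largely inactivated in the placenta, and the enzyme encoded by Hsd11b1 can turn the inactive form back into the active hormone inside a cell.

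All values below are log2 expression values as deposited. Markers of microglia were high on all arrays. Cx3cr1 lay between 10.75 and 13.53 and Csf1r, the receptor that microglia need for survival, between 14.48 and 15.13 over all arrays. The oligodendrocyte factor Sox10 was at the lowest value of the arrays, 2.19, on all 18, but the mean of 3 tested oligodendrocyte lineage markers was 5.90 and 4.66 on the PBS arrays of batch 2, against 2.40 to 2.84 on all others. Among them Olig1, a factor of that lineage, reached 8.77 in PBS, against at most 2.34 in LPS. Of 7 listed markers of the lineage only these 3 were tested. Olig1 and Pdgfra passed the filter only through their PBS values. The mean of the 3 was thus chosen in part on arrays where it is high, and it only describes them. RNA of neurons was present everywhere, with a mean over 20 neuron markers of 8.82 and 8.92 on the LPS arrays of batch 2, 10.42 and 10.52 on the PBS arrays of batch 2 and 5.94 to 7.90 on the other arrays. The microglia marker mean was 11.62 and 11.86 on those PBS arrays, against 12.72 to 13.68 on all others. The Tyrobp probe set read 13.75 to 14.23 in DAP12KO, against 14.29 to 14.55 in UT. Whether it lies in the deleted part is not given, so that it does not check the labels. In bulk RNA of this kind, fewer cells of a type and less RNA per cell cannot be told apart.

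The promoter windows were searched for the exact letters of known elements. Elements outside these windows were not looked for, so that a window without a match does not show that a gene lacks an input. RefSeq windows of GRCm38.p6, from 250 bases before to 50 bases after a transcript's start, were used for 8 of the 10 members (16 windows). The full palindromic receptor element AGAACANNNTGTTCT, searched on both strands, was found in 3 of 32851 windows (0.00913%), and 1 of these 3 belongs to Sgk1, a kinase that stabilizes sodium channels. A single arm of it (AGAACA or TGTTCT, which also counts the arms inside a full element) was in 19.0% of all windows and in 4 of the 16 member windows. The cAMP response element (TGACGTCA), through which CREB acts, was in 1.79% of all windows and in 1 member window, that of Dusp1. The E-box CACGTG, bound by clock factors, was in 7.15% of all windows, and lay in windows of Per1, Fkbp5, Dusp1 and Sgk1. These 3 windows are shown because they carry the receptor element, the cAMP element and the E-box among genes measured on the arrays. Capitals mark the receptor element in Sgk1 (chr10:21993640-21993939, plus strand, first base at -189), the cAMP element in Dusp1 (chr17:26508423-26508722, minus strand, -143) and the E-box in Per1 (chr11:69098699-69098998, plus strand, -166).
Sgk1: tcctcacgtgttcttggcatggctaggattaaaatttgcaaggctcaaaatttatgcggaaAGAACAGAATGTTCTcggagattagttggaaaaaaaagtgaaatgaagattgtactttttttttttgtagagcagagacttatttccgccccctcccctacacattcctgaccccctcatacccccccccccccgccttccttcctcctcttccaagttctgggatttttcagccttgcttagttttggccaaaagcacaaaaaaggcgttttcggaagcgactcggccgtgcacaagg
Dusp1: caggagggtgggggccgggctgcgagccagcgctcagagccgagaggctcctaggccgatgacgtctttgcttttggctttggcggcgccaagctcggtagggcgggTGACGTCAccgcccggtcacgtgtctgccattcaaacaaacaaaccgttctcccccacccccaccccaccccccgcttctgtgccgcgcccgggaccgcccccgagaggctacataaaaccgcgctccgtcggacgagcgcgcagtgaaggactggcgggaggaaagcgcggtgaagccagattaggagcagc
Per1: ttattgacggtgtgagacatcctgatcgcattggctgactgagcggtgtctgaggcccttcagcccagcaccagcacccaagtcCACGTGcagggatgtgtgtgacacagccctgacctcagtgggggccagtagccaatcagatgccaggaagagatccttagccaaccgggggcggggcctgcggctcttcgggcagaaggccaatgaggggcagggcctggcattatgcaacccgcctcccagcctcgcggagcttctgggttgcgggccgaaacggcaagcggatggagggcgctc
A match describes these letters only, and none of the arrays measured binding.

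Set against the whole table, the members gave no called change. In limma's moderated test with Benjamini-Hochberg adjustment over the 22512 probe sets, 0 of the 18 member probe sets passed an adjusted p of 0.05 in LPS minus PBS, where 0.0267% of all probe sets passed. In DAP12KO minus UT 0 of 18 passed, against 0% of all. In injected (the mean of LPS and PBS) minus UT 0 of 18 passed, against 0.0844% of all. In the difference between the LPS and the DAP12KO response 0 of 18 passed, against 0.00444% of all. At an unadjusted p under 0.05, 1 of 18 stood out in LPS minus PBS (12.3% of all probe sets), 1 in DAP12KO minus UT (5.48%), 1 in injected minus UT (4.26%) and 0 in the difference (8.19%). All of these single entries were probe sets of Klf9. That of LPS minus PBS, 1428289_at, was under the threshold on 15 of the 18 arrays and passed the filter only through 2 PBS arrays. The 4 LPS arrays lay wholly to one side of the 4 PBS arrays for 0 of the 18, against 2.23% of all probe sets. The median log2 difference of the 18 was 0.12 in LPS minus PBS, beside -0.10 over all probe sets. It was 0.07 in DAP12KO minus UT, beside 0.02, and 0.00 in injected minus UT, beside 0.00. These medians count genes with several probe sets more than once. They also include Tsc22d3 1444365_at, which passed the filter only through a single DAP12KO array. By the brightest probe set of each of the 8 genes, 4 were higher and 4 lower in LPS minus PBS (median 0.01, beside -0.12 over all genes). The median by gene was -0.04 in DAP12KO minus UT, beside 0.02, and -0.18 in injected minus UT, beside 0.00. The standard errors of the members ran from 0.29 to 1.10 in the first 2 comparisons, with a median of 0.67 beside 0.61 over all, so that only large differences could have passed. The wide intervals are drawn in the plot of all member differences.

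**Figure D1:**
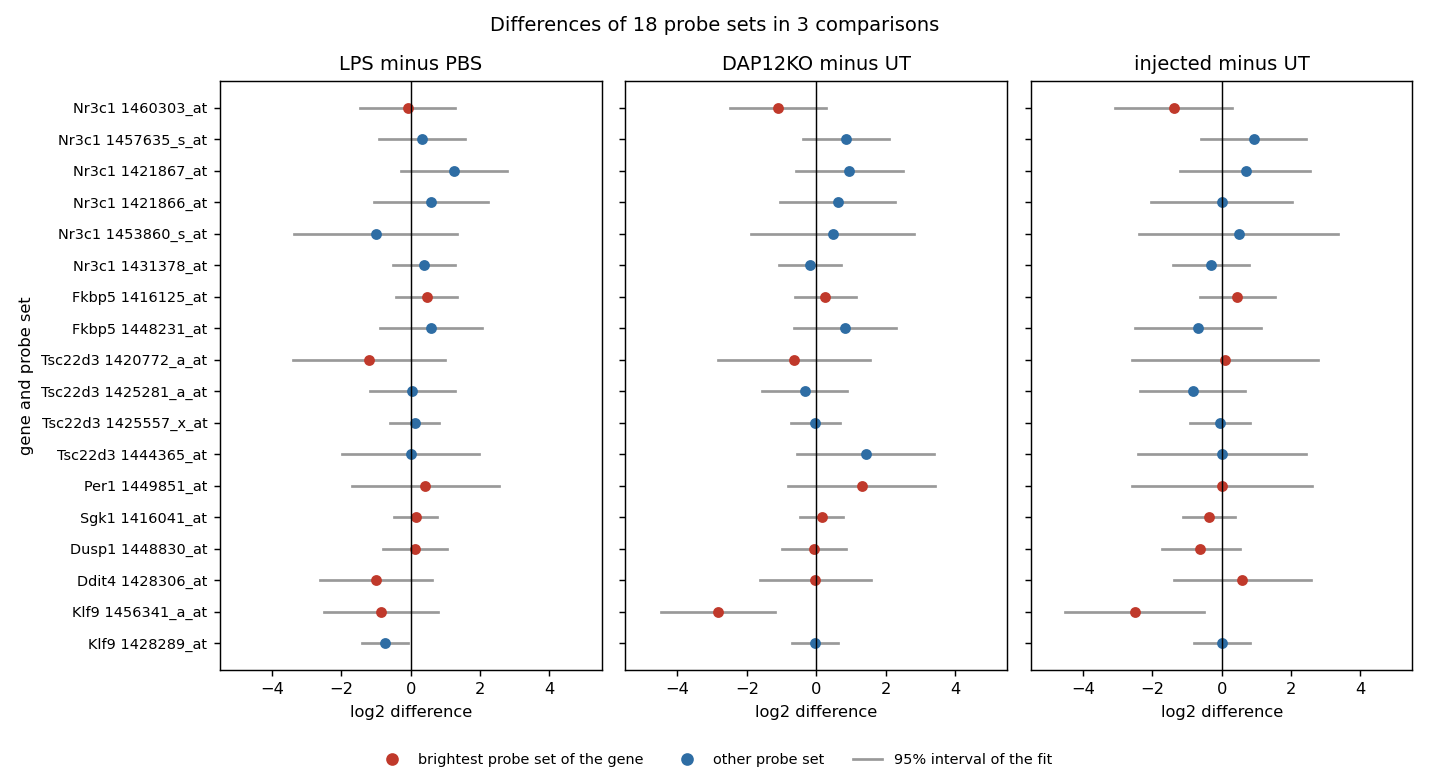
Log2 differences of the 18 tested member probe sets in LPS minus PBS, DAP12KO minus UT and injected minus UT, each with the 95% interval of the limma fit; red points are the brightest probe set of a gene. All intervals cross 0 other than those of Klf9: 1428289_at in LPS minus PBS (-0.75) and 1456341_a_at in DAP12KO minus UT (-2.82) and in injected minus UT (-2.51). Tsc22d3 1444365_at (1.44 in DAP12KO minus UT) passed the filter only through a single DAP12KO array.

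The receptor itself was well above the floor in every sample. The brightest Nr3c1 probe set, 1460303_at, read 10.20, 9.70, 9.23 and 7.79 on the LPS arrays and 10.54, 8.65, 8.30 and 9.80 on the PBS arrays (batches 1, 2, 2 and 4 in each). It read 9.65, 10.44, 8.08 and 8.15 in DAP12KO, against 9.43, 9.89, 9.43, 11.23, 10.91 and 9.14 in UT (the first 2 UT arrays are of batch 3). The groups overlapped throughout, with the single LPS array of batch 4 lowest and a UT array of batch 4 highest.

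The difference in LPS minus PBS was -0.09 ± 0.64 (SE; 95% interval -1.47 to 1.28), made of -0.35 in batch 1, 0.99 in batch 2 and -2.01 in batch 4. In DAP12KO minus UT it was -1.09 ± 0.64 (-2.47 to 0.28), and an exact two-sided permutation of the 8 arrays of batch 4 gave p = 0.229. In injected minus UT it was -1.38 ± 0.79 (-3.06 to 0.30). This last estimate rests on batch 4, the only batch that holds both injected and untreated dams, where LPS minus UT was -2.39 and PBS minus UT -0.38, with a UT mean of 10.18. It was -0.11 without that LPS array and -2.66 without the PBS array of batch 4. In LPS minus PBS the value was 0.54 without the same LPS array, and it was -1.18 when both PBS arrays of batch 2 were left out.

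The 6 Nr3c1 probe sets differed in direction. The probe set 1421867_at read 10.29, 9.75, 9.58 and 8.73 in LPS and 7.69, 8.75, 8.05 and 8.89 in PBS. Its LPS arrays were above the PBS arrays except in batch 4, with a difference of 1.25 (-0.29 to 2.78). For 1421866_at the LPS arrays had 5.39, 6.61, 6.82 and 6.40 and the PBS arrays 5.28, 5.73, 5.90 and 5.95. That probe set was higher in LPS in all 3 batches, by 0.11, 0.90 and 0.45, and the exact two-sided permutation within batches gave p = 0.0833, the smallest that its 24 arrangements allow. For comparison, 23.1% of all probe sets had the same sign in all 3 batches, and 2 of the 18 members did, the other being Tsc22d3 1420772_a_at. In DAP12KO minus UT the remaining Nr3c1 values ran from -0.17 for 1431378_at to 0.96 for 1421867_at, and 4 of the 5 were above 0, opposite to 1460303_at.

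Over the 18 arrays, with each batch mean taken off, the 15 pairs of Nr3c1 probe sets had a median Pearson r of -0.03 (range -0.41 to 0.46), and 9 pairs were at or below 0. The 2 tested probe sets of Fkbp5 had r of 0.31 with each other, and 3 pairs of Tsc22d3 lay between 0.03 and 0.30, leaving out pairs with 1444365_at, which was at the floor on 17 arrays. These values describe arrays that share libraries and batches. They show how far a result for 1 probe set stands for its gene here.

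**Figure D2:**
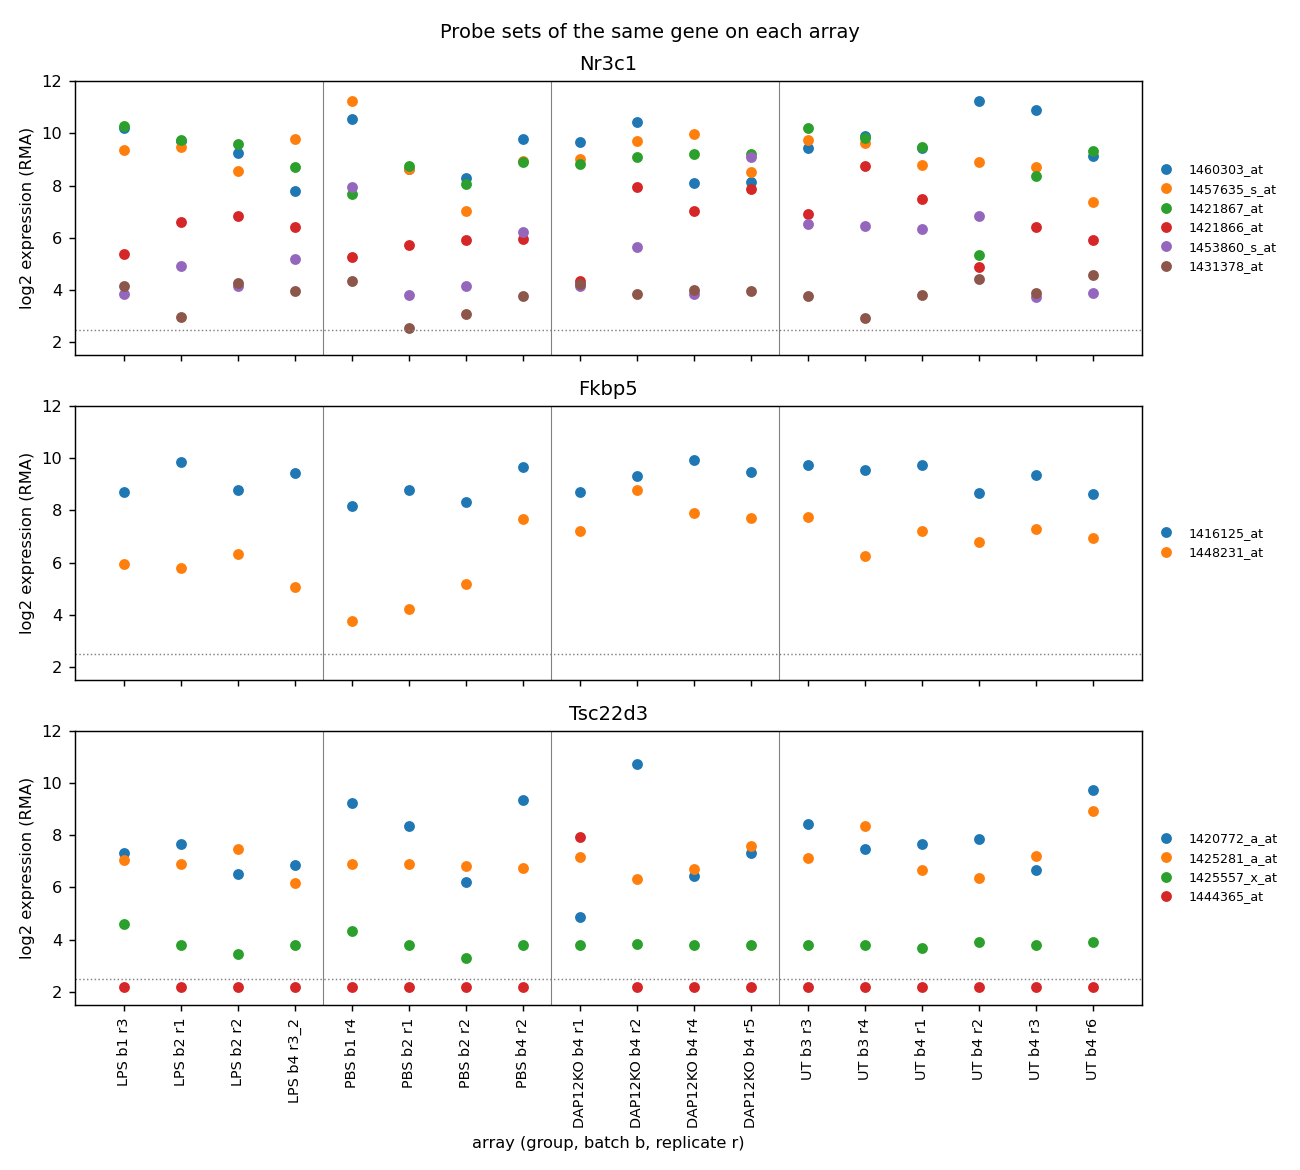
Log2 expression of every tested probe set of Nr3c1, Fkbp5 and Tsc22d3 on each of the 18 arrays, by group, batch and replicate; the dotted line is the filter threshold of 2.49. With each batch mean taken off, the 6 probe sets of Nr3c1 have a median pairwise r of -0.03 (range -0.41 to 0.46), and the 2 of Fkbp5 have r of 0.31.

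The gene of the reactivating enzyme gave no level above the floor. Hsd11b1, measured by 1 probe set, had a highest value of 2.46 over the 18 arrays, below the threshold of 2.49 in all groups. Of the other genes of steroid handling, 3 of the 8 listed were tested, and 0 passed in any comparison. H6pd makes the cofactor on which the Hsd11b1 enzyme depends. It ranged from 8.12 to 9.40 in LPS and from 6.26 to 8.31 in PBS, a difference of 1.49 ± 0.75 (adjusted p = 0.436, limma). Hsd11b2, the inactivating enzyme, reached 9.56 on an LPS array and 5.23 on a DAP12KO array, while the PBS arrays did not exceed 2.30 and the UT arrays 2.38. Its LPS minus PBS value of 1.92 ± 0.95 (adjusted p = 0.432) rests on the single LPS array at 9.56. Without that array its mean would have been under the filter threshold. This test therefore gives no support for a difference.

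Fkbp5 encodes the co-chaperone that lowers the receptor's affinity for hormone and is itself induced by it. Its bright probe set, 1416125_at, read 8.72, 9.86, 8.77 and 9.42 in LPS and 8.15, 8.79, 8.31 and 9.66 in PBS. It was 8.70, 9.30, 9.93 and 9.48 in DAP12KO, against 9.74, 9.53, 9.75, 8.65, 9.34 and 8.62 in UT. These values had a narrow spread, with group SDs of 0.51 to 0.68, and all 4 groups overlapped. LPS minus PBS was 0.46 ± 0.41 (-0.42 to 1.34), with 0.57, 0.76 and -0.25 in batches 1, 2 and 4. Leaving out LPS replicate 1 of batch 2 gave 0.18, leaving out the batch 4 LPS array 0.70, and leaving out both PBS arrays of batch 2 gave 0.16. DAP12KO minus UT was 0.26 ± 0.41 (-0.61 to 1.14) and injected minus UT 0.45 ± 0.51 (-0.62 to 1.53), where the batch 4 values were 0.33 for LPS and 0.58 for PBS.

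The dimmer Fkbp5 probe set, 1448231_at, showed a pattern by batch. It read 5.94, 5.80, 6.34 and 5.08 in LPS and 3.76, 4.21, 5.19 and 7.66 in PBS, beside 7.20 to 8.76 in DAP12KO and 6.24 to 7.75 in UT. LPS minus PBS was 2.18, 1.37 and -2.59 in batches 1, 2 and 4, which left 0.58 ± 0.69 (-0.89 to 2.05) in the fit. The arrays of batches 1 and 2 lay at or below 6.34, and their Gapdh control spots had a 3′ minus 5′ difference of 2.01 to 3.33 (a larger one is read as more degraded or less fully copied RNA). That difference was 0.89 to 1.31 on the other arrays apart from 2 UT arrays, which had 2.23 with 1448231_at at 6.79 and 2.77 with it at 6.24. The LPS array of batch 4 was low too, at 5.08, with a Gapdh difference of 0.96. The part of RNA quality in these values was not tested.

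Tsc22d3 encodes GILZ, a leucine zipper protein through which glucocorticoids dampen NF-kB, and is a standard readout of receptor activity. Its brightest probe set, 1420772_a_at, read 7.32, 7.65, 6.50 and 6.86 in LPS and 9.22, 8.36, 6.21 and 9.33 in PBS. Of the PBS arrays 3 lay above all LPS arrays, and the fourth lay below them. LPS minus PBS was -1.20 ± 1.03 (-3.38 to 0.99; adjusted p = 0.689, limma), with -1.90, -0.21 and -2.47 in batches 1, 2 and 4. Leaving out PBS replicate 2 of batch 2 gave -1.82, leaving out the batch 4 LPS array -0.77, and leaving out both PBS arrays of batch 2 gave -2.18.

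In DAP12KO this probe set had the widest spread of the bright members, at 4.87, 10.73, 6.45 and 7.32, against 8.41, 7.46, 7.67, 7.86, 6.68 and 9.72 in UT. The DAP12KO arrays lay on both sides of the UT arrays, and the difference of -0.64 ± 1.03 (-2.82 to 1.54) was 0.18 without the lowest DAP12KO array. Injected minus UT was 0.11 ± 1.26 (-2.57 to 2.78), with LPS minus UT at -1.13 and PBS minus UT at 1.34 in batch 4. The second probe set, 1425281_a_at, was at 6.17 to 7.45 in LPS and 6.75 to 6.91 in PBS, a difference of 0.05 (-1.18 to 1.28). Another, 1444365_at, was at the lowest value of 2.19 on 17 arrays and at 7.93 on 1 DAP12KO array. Its mean of 2.51 over all arrays passed the filter only through that DAP12KO array. Its DAP12KO minus UT value of 1.44 rests on the same array, so this test gives no support for a difference.

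Per1 is a clock gene that the hormone also induces directly. It read 7.63, 5.91, 5.63 and 4.50 in LPS and 4.53, 5.46, 5.90 and 6.08 in PBS, so that LPS minus PBS was 3.10, 0.09 and -1.58 in batches 1, 2 and 4. The fitted difference was 0.42 ± 0.99 (-1.69 to 2.54). DAP12KO held at 6.47, 7.28, 5.76 and 6.82, while UT spread over 7.32, 3.78, 7.87, 3.83, 5.90 and 3.49. The DAP12KO values lay inside the UT range, and the difference was 1.31 ± 0.99 (-0.80 to 3.43), with 0.72 without UT replicate 6 and 2.18 without UT replicate 1, both of batch 4. Injected minus UT was 0.02 ± 1.22 (-2.57 to 2.61). Of the other circadian genes 0 of 11 tested passed in any comparison. Bhlhe41, a clock repressor, differed by 2.40 ± 0.58 in LPS minus PBS (adjusted p = 0.134, limma) and the repressor Nr1d2 by -2.25 ± 0.86 (adjusted p = 0.301). Group means in LPS, PBS and UT were 6.13, 3.74 and 7.67 for Bhlhe41 and 4.50, 6.75 and 4.66 for Nr1d2. The LPS mean of Bhlhe41 thus lay below that of UT, and its lowest PBS value was the floor of 2.19.

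Sgk1, whose window carries the full receptor element shown above, had the smallest standard errors of the members. It read 11.67, 12.97, 12.41 and 10.96 in LPS, against 11.82, 12.06, 11.77 and 11.81 in PBS. It read 12.05, 11.64, 11.89 and 12.06 in DAP12KO, against 12.35, 12.78, 11.96, 12.21, 11.65 and 11.20 in UT. The PBS and DAP12KO arrays clustered tightly (SD 0.13 and 0.20) inside the wider LPS and UT ranges (SD 0.87 and 0.55). LPS minus PBS was 0.14 ± 0.29 (-0.48 to 0.76), DAP12KO minus UT 0.16 ± 0.29 (-0.46 to 0.77) and injected minus UT -0.37 ± 0.36 (-1.12 to 0.39). These are the narrowest intervals among the tested member probe sets. By batch, LPS minus PBS was -0.15, 0.78 and -0.85.

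Dusp1 encodes a phosphatase that switches off MAP kinases and answers both to glucocorticoids and to acute stimuli. It read 13.68, 13.71, 13.36 and 10.84 in LPS and 12.12, 13.29, 12.95 and 12.76 in PBS. In batches 1 and 2 all LPS arrays were above all PBS arrays, with differences of 1.57 and 0.41, and in batch 4 the difference was -1.92. The fitted difference was 0.12 ± 0.43 (-0.80 to 1.04), and 0.80 without the PBS array of batch 4, which takes that batch out of this comparison. The low array of that batch was the LPS array, at 10.84. DAP12KO had 12.22, 12.75, 12.46 and 11.98, against 13.07, 13.42, 12.10, 12.30, 11.78 and 13.46 in UT. The difference was -0.05 ± 0.43 (-0.98 to 0.87). Injected minus UT was -0.61 ± 0.53 (-1.73 to 0.52), with LPS minus UT at -1.56 and PBS minus UT at 0.35 in batch 4. With the LPS array of that batch left out it was 0.75.

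Ddit4 encodes REDD1, an inhibitor of mTORC1 that glucocorticoids, hypoxia and energy stress induce. It read 7.65, 12.17, 12.17 and 11.44 in LPS and 10.72, 13.02, 12.66 and 11.08 in PBS. It read 10.60, 11.10, 11.19 and 9.65 in DAP12KO, against 10.25, 5.48, 10.50, 11.05, 10.34 and 10.74 in UT. A single array stood far below the rest both in LPS (batch 1) and in UT (batch 3). LPS minus PBS was -1.01 ± 0.76 (-2.62 to 0.60), and -0.33 without the LPS array of batch 1. DAP12KO minus UT was -0.02 ± 0.76 (-1.63 to 1.59) and injected minus UT 0.60 ± 0.93 (-1.37 to 2.57). Of 12 other hypoxia and amino acid stress genes 0 passed. Adm, a hypoxia-induced peptide hormone, was at -1.70 ± 0.72 in LPS minus PBS (adjusted p = 0.350) and the glycolytic enzyme gene Pgk1 at -0.52 ± 0.24 (adjusted p = 0.382, limma).

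**Figure D3:**
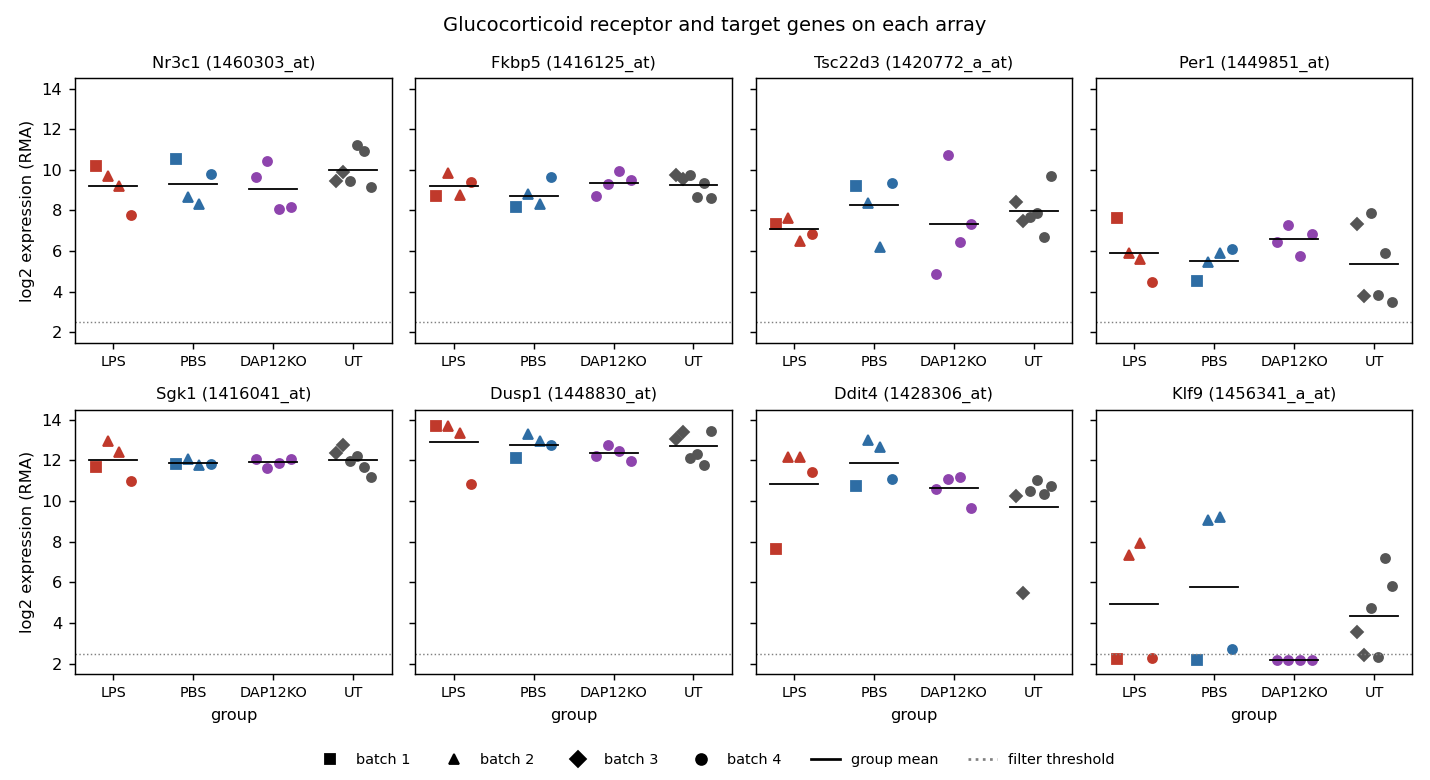
Log2 expression of the brightest probe set of each of the 8 tested genes on each array (symbols give the batch, black lines the group mean, the dotted line the filter threshold of 2.49). LPS overlaps PBS for every gene shown, DAP12KO overlaps UT for every gene but Klf9, which lies at the floor of 2.19 on all 4 DAP12KO arrays and under the threshold on 2 UT arrays.

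Klf9 encodes a zinc finger repressor that glucocorticoid and thyroid hormone induce in neurons. Of its 7 probe sets 5 failed the filter. The brightest, 1456341_a_at, was at 2.19 on all 4 DAP12KO arrays, against 4.73, 2.30, 7.21 and 5.81 on the UT arrays of batch 4 and 3.54 and 2.42 on those of batch 3. As deposited, all DAP12KO arrays lay below all UT arrays of batch 4, as was the case for 2.31% of all probe sets and for 1 of the 18 members. The UT array at 2.30 was under the threshold too, where values have no order, so that this separation rests on 3 UT arrays. The mean of these UT arrays was 5.01 ± 2.07 (SD, n = 4), 5.73-fold above the filter threshold, and all DAP12KO values were under that threshold. This fold describes a mean of widely spread arrays and is no lower bound on the difference. The fitted difference was -2.82 ± 0.77 (-4.46 to -1.18; unadjusted p = 0.00222, adjusted p = 0.633 in limma). The exact two-sided permutation test gave p = 0.0286, the smallest of its 70 arrangements. With values under the threshold set to it, a setting chosen after seeing the data, the exact permutation p was 0.143 at a difference of -2.57. With each array left out in turn the value ran from -3.72 (without UT replicate 2 of batch 4) to -2.09 (without replicate 3).

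The same probe set read 2.21, 7.34, 7.94 and 2.27 in LPS and 2.19, 9.05, 9.19 and 2.72 in PBS. It was high on all arrays of batch 2 and near or below the threshold elsewhere in both groups. LPS minus PBS was -0.85 ± 0.77 (-2.49 to 0.79), with -1.48 in batch 2. Without the 2 PBS arrays of that batch it was -0.22. The arrays of batch 2 were also those with the highest neuron marker means: LPS arrays with 8.82 and 8.92 and PBS arrays with 10.42 and 10.52, against 5.94 to 7.90 elsewhere. Adding the neuron marker mean to the fit gave an LPS minus PBS value of 0.94. In DAP12KO the neuron marker mean was 6.14 to 7.21, against 6.32 to 7.48 in UT of batch 4, and with that term in the fit the difference was -2.38. Within batch 4 Klf9 was 2.30 to 7.21 on UT arrays whose neuron marker means were 6.32 to 7.48. The part of neuronal RNA in the Klf9 values was not tested further.

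Injected minus UT for this probe set was -2.51 ± 0.94 (-4.52 to -0.51; unadjusted p = 0.0173, adjusted p = 1 in limma), with LPS minus UT at -2.74 and PBS minus UT at -2.29 in batch 4. This comparison and DAP12KO minus UT share the same 4 UT arrays, so that neither supports the other. The dim probe set 1428289_at was at 2.35 to 2.67 in LPS and 2.35 to 4.14 in PBS. The 2 PBS arrays of batch 2 alone were clearly above the threshold, at 4.14 and 3.77, and the difference was -0.75 (-1.41 to -0.09; unadjusted p = 0.0292, adjusted p = 0.340). Without those 2 arrays it was -0.05. The mean of 2.55 over the 18 arrays passed the filter of 2.49 only through those 2 arrays. This test therefore gives no support for a difference between LPS and PBS.

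**Figure D4:**
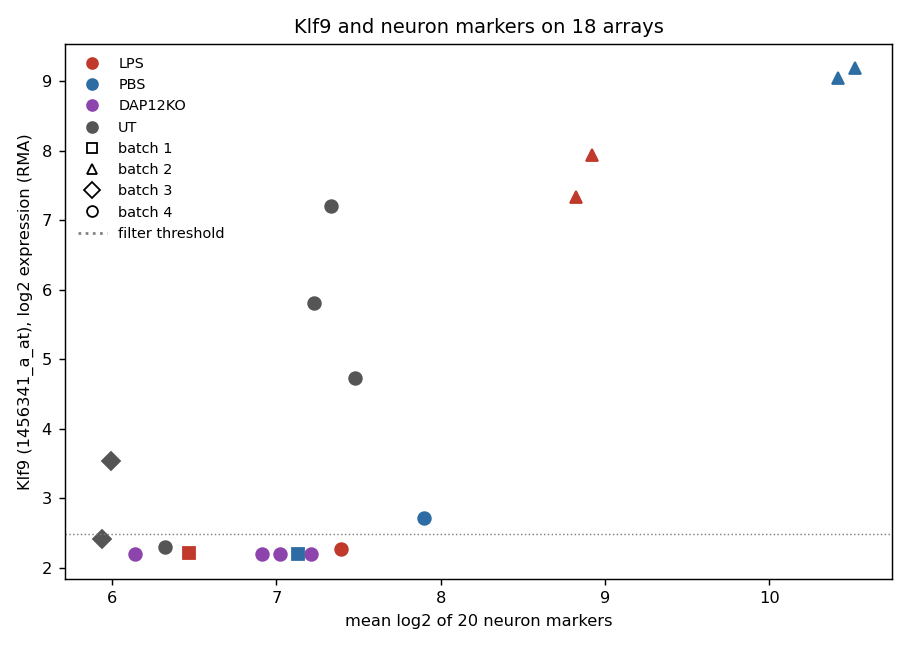
Klf9 (1456341_a_at, log2 expression) against the mean log2 of 20 neuron markers on the 18 arrays, by group and batch. The 4 arrays of batch 2 lie at the upper right, from 7.34 to 9.19 in Klf9, and the 4 DAP12KO arrays lie at 2.19 with neuron means of 6.14 to 7.21.

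Zbtb16 encodes PLZF, a transcription factor known to be induced by glucocorticoid. None of its 3 probe sets passed the filter. The highest value was 3.07, on the PBS array of batch 1, and all others were below that. Thus 2 of the 10 members, Zbtb16 and Hsd11b1, gave no level to compare.

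The wider pathway was read from lists of other genes, each gene by its brightest probe set, and 0 genes of any of these lists passed in any of the 4 comparisons. Of 13 chaperones and co-regulators of the receptor, 5 were higher and 8 lower in LPS minus PBS (median -0.15, beside -0.12 over all 11630 genes). The coactivators Ncoa3 and Ncoa1 stood at 0.77 ± 0.41 and -1.46 ± 0.79 (adjusted p = 0.457 and 0.466, limma). Of 22 other glucocorticoid-induced genes 13 were higher and 9 lower (median 0.06). Among them Mertk, a receptor for the uptake of dead cells, was at 0.73 ± 0.35 (adjusted p = 0.409, limma). Txnip, a sensor of glucose, was at 0.72 ± 0.35, and Irs2, an insulin receptor substrate, at -0.77 ± 0.36 (adjusted p = 0.422 and 0.401, limma). Group means in LPS, PBS and UT were 11.75, 11.02 and 12.09 for Mertk and 11.54, 10.82 and 12.29 for Txnip. For Irs2 they were 3.05, 3.82 and 2.97. The LPS means of Mertk and Txnip thus lay below those of UT.

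Of 10 inflammatory genes that glucocorticoids hold back, 9 were higher in LPS minus PBS (median 1.06), and 0 passed. Over all genes 4915 of 11630 were higher (median -0.12). The mean of the 10 was 7.02 and 6.22 on the PBS arrays of batch 2, against 7.45 to 10.95 on all other arrays. The chemokine genes Ccl4 and Ccl5 stood at 1.51 ± 0.52 and 2.84 ± 1.05, and the cytokine gene Il1a at 1.18 ± 0.45 (adjusted p = 0.260, 0.287 and 0.302, limma). Group means in LPS, PBS and UT were 10.72, 9.20 and 12.33 for Ccl4 and 7.97, 6.79 and 8.69 for Il1a. For Ccl5 they were 8.80, 5.96 and 8.40. Of 19 immediate early genes 17 were higher (median 0.39). Klf2, a zinc finger factor of endothelium and myeloid cells, was at 2.63 ± 0.55 with 9.13 to 11.71 in LPS and 6.80 to 7.69 in PBS (adjusted p = 0.0899), while Egr1 was at 0.31 ± 0.13 (adjusted p = 0.330). In the same comparison 21 of 21 microglia markers were higher (median 0.39) and 19 of 20 neuron markers lower (median -1.11). The part of cell content in these counts was not tested.

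In DAP12KO minus UT, 9 of the 10 inflammatory genes were likewise higher (median 0.71, beside 0.02 over all genes), with 0 passed. Over all genes 5996 of 11630 were higher. Tnf read 2.76 to 7.09 in DAP12KO and 2.69 to 6.24 in UT, a difference of 2.69 ± 0.89. Cxcl10 was at 3.24 ± 1.19 and Ccl2 at 1.45 ± 0.62 (adjusted p = 0.779, 0.809 and 0.874 for the 3, limma). Of the 22 other glucocorticoid-induced genes 7 were higher and 15 lower (median -0.17). Bcl6, a repressor of inflammatory genes, was at -2.28 ± 0.90 and Cd163, the macrophage receptor for haemoglobin and a marker of border macrophages, at -2.51 ± 1.23, while Nfkbia, the inhibitor of NF-kB, was at 0.79 ± 0.40 (adjusted p = 0.847, 0.903 and 0.908). Cd163 also stands on the list of border macrophage and monocyte markers, of which 5 of 7 were lower in DAP12KO (median -0.58). What part they had was not tested.

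In injected minus UT the counts were 8 of 22 higher for the other glucocorticoid-induced genes (median -0.08), 4 of 10 for the inflammatory genes (median -0.03) and 3 of 19 for the immediate early genes (median -0.18), beside a median of 0.00 over all genes. In the same comparison 16 of 20 neuron markers were higher (median 0.47), as were 12 of 13 neural progenitor and astrocyte markers (median 0.73) and 6 of 7 border macrophage and monocyte markers (median 0.68), while 16 of 21 microglia markers were lower (median -0.04). Their part in the counts was not tested. With 1 LPS and 1 PBS array in the batch that sets this comparison, its standard errors are the largest of the 3. A difference after injection as such was not detectable in these members with this number of arrays. The 95% intervals given above assume an additive batch term and do not bound what is possible. For Dusp1, with an interval of -1.73 to 0.52, the value was -1.96 without the PBS array of batch 4. It was 0.75 without the LPS array of that batch.

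The genes whose levels went most alike with the receptor readouts were searched among 10440 genes over the 18 arrays, with each batch mean taken off. Closest to Nr3c1 1460303_at were Dcp1b (r = 0.84), Siglece (0.83), Slc16a13 (0.82), Sema4d (0.82) and Trim11 (0.80). Closest to Fkbp5 1416125_at were Tlr13 (0.86), Tmem144 (0.81), Ppp1r18 (0.80), Pcbp1 (0.79) and Wdfy3 (0.78). Closest to Tsc22d3 1420772_a_at were Cript (0.86), Tbc1d1 (0.84), Nprl2 (0.83), Pi4kb (0.82) and Cd244a (0.82). No gene appeared on more than 1 of these 3 lists, and no member stood on them. These are the highest of many correlations on few arrays and are given as a description.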

How the data were processed

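The values analysed are log2 expression values deposited by the authors for 45101 probe sets on 18 Affymetrix arrays. Per the submitters' processing notes they were made with RMA, which takes off background, normalizes between arrays and gives 1 value per probe set. The sources used here state neither its version nor whether the arrays went through it as 1 set. Per the labels' protocols, RNA was amplified with Ovation Pico WTA v2 before labelling. The values were used as deposited. All arrays share a lowest value of 2.19, which 32.8% to 38.2% of the probe sets held on an array, and array medians were 2.78 to 3.17. For arrays, their number limits the precision. Columns of no sample numbered 0.

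Of the probe sets, 34958 named 1 gene, 932 several and 9211 none, and only the first kind was used. Probe sets with a mean under the 40th percentile (log2 2.49) were left out, which left 22512 of 11630 genes. The 18 arrays entered a single limma fit (limma 3.58.1, R 4.3.3) with group means and an additive batch term, leaving 11 residual degrees of freedom, with a variance prior that follows intensity, two-sided moderated tests and Benjamini-Hochberg adjustment over the 22512 probe sets within a comparison at a threshold of 0.05. Log2 differences carry the standard error from limma, and group means the SD between arrays. The fit was checked on simulated data. Exact permutation tests over arrays were run beside it. All DAP12KO arrays are in batch 4, so that the UT arrays of batch 4 set that difference. In batch 2, the deviations of equally numbered LPS and PBS arrays from their group means had r = 0.52 for both pairs. Each group held only 2 arrays there, whose deviations mirror each other. The second r therefore repeats the first and counts as 1 value. In batch 4, with 4 arrays a group, r was -0.01 and 0.00 for DAP12KO with UT. That mirror does not hold there, so the batches cannot be compared in this. The labels state no pairing, so the numbers were not used as pairs.

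Named genes are all members, the 3 genes of each other list with the lowest p in a comparison, and the 5 genes most alike with Nr3c1, Fkbp5 and Tsc22d3. Members and lists were chosen with earlier results of these data known. Promoters came from RefSeq (GRCm38.p6), and the plots were made with matplotlib 3.10.9 in Python 3.11.15. The alternatives were other filters, priors, weights, batch terms and covariates, a replicate block and each array left out.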

Additional observations from a re-analysis of the deposited data

Results flagged for a closer look

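Of 74 sets of values (a probe set in a group), 12 had 1 array far from the others of its group by Dixon's criterion. Chance gives about 1 in 20 for values without ties. Many of the flagged sets hold tied values, mostly at or near the floor, where any single value off the tie is flagged. The 12 therefore cannot be set against that rate. For Dusp1 the LPS array of batch 4 read 10.84, and the nearest other LPS array 13.36. For Ddit4 the LPS array of batch 1 read 7.65, against 11.44 for the next, and a UT array of batch 3 read 5.48, against 10.25 for the next. The Tsc22d3 probe set 1444365_at read 7.93 on DAP12KO replicate 1 and 2.19 on the other DAP12KO arrays, and 1425557_x_at read 3.84 on DAP12KO replicate 2, with 3.79 on the others. The Klf9 probe set 1422264_s_at, left out by the filter, read 7.26 on the LPS array of batch 4 and at most 2.20 on the other LPS arrays. The remaining cases lay within about a log2 unit of the floor. Klf9 1428289_at had 2.67 on an LPS array of batch 2 (next 2.35), 1428288_at had 3.31 on a PBS array of batch 2 (next 2.19), and 1436952_at had 2.76 on a DAP12KO array and 2.70 on the PBS array of batch 1 (next 2.19 in both). Zbtb16 1427638_at had 3.07 on the PBS array of batch 1 and 2.65 on a UT array of batch 4 (next 2.23 in both). What sets these arrays apart was not tested.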

How the results depend on the processing

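The fit was run under 31 alternatives in DAP12KO minus UT and in injected minus UT, 18 of which left out 1 array each, and 0 of the tested member probe sets passed. In LPS minus PBS, with 30 alternatives, 1 passed with array weights, the dim Klf9 probe set 1428289_at (adjusted p = 0.0101 in limma). This probe set entered the test only through the 2 PBS arrays of batch 2. With array weights 1968 probe sets passed in the whole table, against 6 with equal weights. In batch 4, 243 passed without the LPS array and 233 without the PBS array. For batch 1 these counts were 141 and 144. Leaving out either array of such a batch takes the whole batch out of this comparison, so the counts do not mark a single array. Over all alternatives the calls in the whole table ran from 0 to 1968 in LPS minus PBS, 0 to 5 in DAP12KO minus UT, 1 to 178 in injected minus UT and 0 to 55 in the difference of the responses. Of 24 results (8 genes in 3 comparisons), 8 kept their direction throughout and 16 turned in at least 1 of their alternatives, all of them without passing. In LPS minus PBS, array weights gave Nr3c1 0.59. The neuron marker covariate gave Sgk1 -0.41, Dusp1 -0.27 and Klf9 0.94. Sgk1 was -0.50 and Dusp1 -0.18 both without the 2 PBS arrays of batch 2 and without batch 2. In DAP12KO minus UT, Sgk1 was -0.11 and Ddit4 0.91 with no batch term, and Dusp1 0.07 and Ddit4 0.04 with array weights. In injected minus UT with no batch term, Fkbp5 was -0.31, Tsc22d3 -0.29, Dusp1 0.15 and Klf9 1.03, and Per1 was -0.81 with array weights and -0.80 with the covariate. The cause was not tested. With each array left out in turn, LPS minus PBS ran from -0.41 to 0.54 for Nr3c1, 0.18 to 0.70 for Fkbp5, -1.82 to -0.77 for Tsc22d3, -1.47 to -0.33 for Ddit4, -0.47 to 1.09 for Per1, -0.10 to 0.47 for Sgk1 and -0.37 to 0.80 for Dusp1. DAP12KO minus UT ran from -1.55 to -0.74 for Nr3c1, 0.07 to 0.48 for Fkbp5, 0.72 to 2.18 for Per1, -1.77 to 0.18 for Tsc22d3, -0.03 to 0.31 for Sgk1, -0.27 to 0.30 for Dusp1 and -0.21 to 0.31 for Ddit4. Injected minus UT ran from -2.66 to -0.11 for Nr3c1, -3.42 to -1.78 for Klf9, -0.02 to 0.92 for Fkbp5, -0.74 to 0.96 for Tsc22d3, -1.32 to 1.35 for Per1, -1.02 to 0.29 for Sgk1, -1.96 to 0.75 for Dusp1 and -0.31 to 1.51 for Ddit4. For Klf9 in DAP12KO minus UT the exact permutation test (p = 0.0286, at a difference of -2.82) gave 0.143 with values under the threshold set to it, a setting chosen after seeing the data, and adjusted p in limma ran from 0.33 to 0.857 when an array was left out. With the replicate block (consensus correlation 0.03) 0 member probe sets passed, and Klf9 was at -2.79 (adjusted p = 0.607, limma). The replicate numbers share only a number between groups.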
